A study of Arabidopsis thaliana with 8 samples.

Results

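The genes described here are 5 jasmonate and wound defence genes of Arabidopsis thaliana, read from 5 of the 22746 probe sets tested. They are the plant defensin genes PDF1.2 (AT5G44420) and PDF1.2b (AT2G26020), the thionin gene THI2.1 (AT1G72260), CORI3 (AT4G23600, probe set 254232_at) and NATA1 (AT2G39030, probe set 266142_at). The first 3 probe sets were found by their gene name in the platform annotation. That annotation leaves 254232_at and 266142_at unnamed, and their pairing with CORI3 and NATA1 was given with the choice of the genes. The choice was made with the values of these arrays known, for the IBM1 knockout and across all 4 genotypes. Levels and differences of the 5 genes are therefore a description and carry no test.

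The 8 ATH1 arrays cover 4 genotypes in the Col-0 accession, with 2 arrays each. The plants were wild type (WT) or lacked JMJ24 (the JMJ24 knockout), IBM1 (the IBM1 knockout) or both (the JMJ24-IBM1 double knockout). Both genes encode jumonji proteins, a family that can remove methyl groups from histones. RNA came from the aerial parts of untreated seedlings 12 days old, grown on MS medium under 16 h of light and 8 h of dark. The labels name no allele, and since they do not say that replicates were grown apart, the p-values reflect a spread between samples that could be technical alone. Values are on the log2 scale. The arrays' own lower quartiles, taken here as near background, ran from 2.49 to 2.53.

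Jasmonates are fatty-acid hormones that plants make after wounding, insect feeding and attack by some fungi. The hormone causes the breakdown of JAZ repressors and so frees transcription factors, and the response divides into branches that partly oppose each other. In the branch driven with ethylene through the factors ERF1 and ORA59, antimicrobial peptides such as the defensins PDF1.2 and PDF1.2b are made. In the branch driven by MYC2 and its relatives, genes of wounding and of the bacterial jasmonate mimic coronatine are induced. CORI3, a cystine lyase induced by coronatine, and NATA1, an enzyme that acetylates ornithine, are genes of that kind. THI2.1 encodes a thionin, a small cysteine-rich antimicrobial protein that responds to jasmonate, and is grouped here with the defensins.

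On both IBM1 knockout arrays all 5 genes stood above both WT arrays, but the genes parted into groups in the plants lacking JMJ24. CORI3 and NATA1 were also high on 1 of the 2 JMJ24 knockout arrays (replicate 1) and on 1 of the 2 double knockout arrays (replicate 2). Over all probe sets, replicate 1 minus replicate 2 correlated at -0.31 between these 2 genotypes. A crossed split was thus not limited to these genes. PDF1.2b and THI2.1 stood apart on the IBM1 knockout arrays and read close to WT on the same JMJ24 knockout array, for THI2.1 near background. PDF1.2 followed neither pattern.

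NATA1 had the largest difference between the IBM1 knockout and WT of the 5 genes. It measured 3.67 and 3.58 in WT and 7.27 and 6.98 in the IBM1 knockout. The JMJ24 knockout read 5.15 and 3.65 and the double knockout 3.44 and 6.09. The IBM1 knockout arrays lay above the other 6, while JMJ24 knockout replicate 2 and double knockout replicate 1 lay with WT. The group means differed by 3.5 for IBM1 knockout minus WT (SE 0.948, n = 2), by 1.14 for double knockout minus WT and by 0.78 for JMJ24 knockout minus WT. In bulk seedling tissue, a change in the number of cells of a type and a change in RNA per cell cannot be told apart. This holds here and in the results that follow.

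CORI3 was high on the same 4 arrays, with a smaller span. It measured 7.70 and 7.88 in WT and 9.14 and 7.97 in plants lacking JMJ24 alone. The IBM1 knockout read 9.56 and 9.81 and the double knockout 7.52 and 9.35. The 2 IBM1 knockout arrays were the highest, but double knockout replicate 2 stood close beneath them, and double knockout replicate 1 was the lowest of all 8. The IBM1 knockout stood 1.89 above WT (SE 0.680, n = 2), the JMJ24 knockout 0.77 and the double knockout 0.65. With WT and the IBM1 knockout fitted alone the SE of their difference was 0.128.

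For both wound genes the means of the JMJ24 and double knockouts rest on 1 array each. Without double knockout replicate 2 the double knockout stood at -0.27 from WT for CORI3 and -0.18 for NATA1, and without double knockout replicate 1 at 1.56 and 2.46. Without JMJ24 knockout replicate 1 the JMJ24 knockout stood 0.18 above WT for CORI3 and 0.03 for NATA1, and without JMJ24 knockout replicate 2 at 1.35 and 1.53. So whether the double knockout stood above or below WT is set by which array is kept. The JMJ24 knockout stood above the WT mean either way, by an amount set by the array kept. For NATA1, however, JMJ24 knockout replicate 2 (3.65) lay between the WT arrays (3.67 and 3.58). Neither mean differs from WT beyond the spread between its replicates.

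The gaps between replicates can be set against those of all probe sets. In the double knockout the replicates of NATA1 differed by 2.65 and those of CORI3 by 1.83, where the median gap over 22746 probe sets was 0.105. A gap at least as large was found in 0.026% of all probe sets for NATA1 and in 0.158% for CORI3. In the JMJ24 knockout the gaps were 1.5 and 1.17, reached by 0.22% and 0.444% of all probe sets. In WT and the IBM1 knockout no gap of either gene exceeded 0.294. The genes were chosen with these values known, and only 1970 of the 22746 probe sets had a range of at least 1. These shares are therefore a description and carry no test.

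THI2.1 differed from the wound genes in the JMJ24 knockout. WT read 2.5 and 2.49 and the JMJ24 knockout 2.57 and 2.52. The IBM1 knockout read 4.29 and 6.11 and the double knockout 2.52 and 3.06. Both IBM1 knockout arrays lay above the other 6, of which double knockout replicate 2 was the highest. On 4 of the 8 arrays, among them both WT arrays, the value lay at or below the array's lower quartile, so a level lower than WT could not have been seen. Counting such values as the quartile itself, the IBM1 knockout stood at least 2.69 above WT. That size rests on how far apart the IBM1 knockout arrays lie, since it was 3.61 without their replicate 1 and 1.79 without their replicate 2.

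PDF1.2b spanned less but was the most even of the 5 genes between replicates. WT read 3.04 and 3.01, the JMJ24 knockout 3.05 and 3.09 and the double knockout 3.1 and 3.13, against 3.74 and 3.82 for the IBM1 knockout. The IBM1 knockout arrays lay apart from the other 6, which spanned 0.122. The IBM1 knockout stood 0.75 above WT (SE 0.0447, n = 2) and the double knockout stood at -0.67 from the IBM1 knockout. The probe set, 257365_x_at, carries the suffix that the manufacturer gives to sets with probes that also match other transcripts. Its reading may therefore include other defensin genes of near-identical sequence, such as PDF1.2, PDF1.2c or the neighbouring PDF1.3.

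PDF1.2, the usual marker of the ethylene-linked branch, was high on 1 IBM1 knockout array and 1 double knockout array. WT read 3.04 and 3.18, the JMJ24 knockout 3.01 and 2.80, the IBM1 knockout 4.07 and 3.28, and the double knockout 2.99 and 4.03. The IBM1 knockout and WT did not overlap, but IBM1 knockout replicate 2 lay only slightly above WT replicate 2, and the double knockout overlapped both. The difference of 0.56 between IBM1 knockout and WT (SE 0.412, n = 2) became 0.17 without IBM1 knockout replicate 1. The double knockout stood 0.40 above WT, and at -0.12 without double knockout replicate 2.

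**Figure D1:**
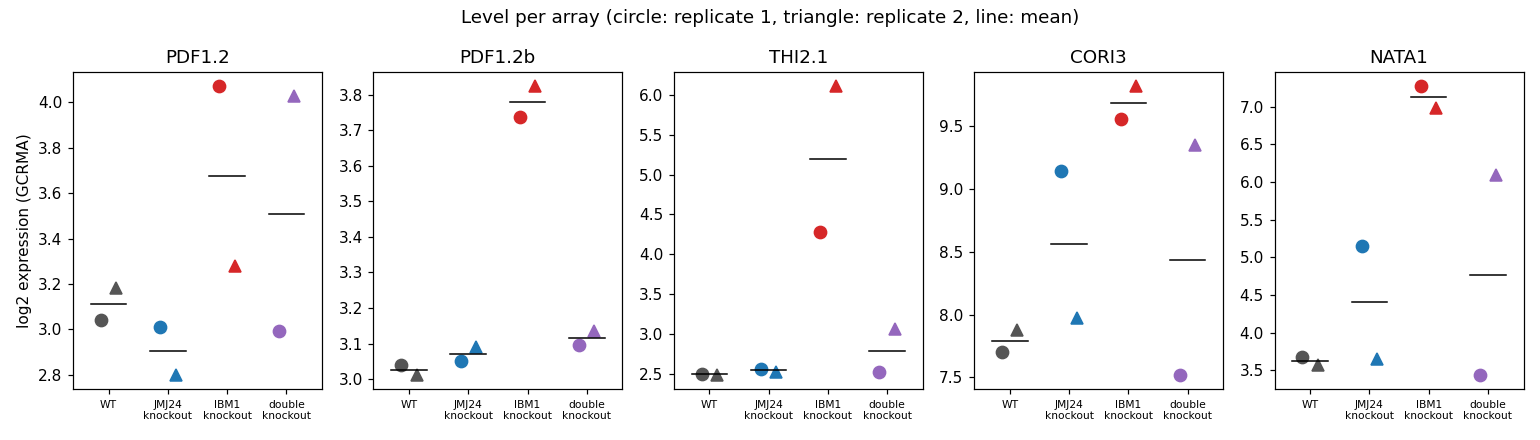
Log2 expression of the 5 genes on each array, by genotype, with circles for replicate 1, triangles for replicate 2 and a line at the mean of the 2 arrays; each panel has its own vertical range. CORI3 and NATA1 are high on JMJ24 knockout replicate 1 and double knockout replicate 2 as well as in the IBM1 knockout, while PDF1.2b is high in the IBM1 knockout only (3.74 and 3.82).

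The 2 groups of genes can be compared without setting one probe set's level against another's, by giving each array's shift from the WT mean as a percentage of that gene's own mean IBM1 knockout shift. On JMJ24 knockout replicate 1, CORI3 reached 71.5% and NATA1 43.7% of that shift, whereas THI2.1 reached 2.59% and PDF1.2b 3.43%. On double knockout replicate 2 the wound genes reached 82.3% and 70.4%, and THI2.1 and PDF1.2b 21.0% and 14.4%. So on both of these arrays the wound and coronatine genes stood nearer to the IBM1 knockout than PDF1.2b did. The values of PDF1.2b lay above the lower quartile on all 8 arrays. Outside the IBM1 knockout they ran only from 3.01 to 3.13, below the lowest array median of 3.41, so a small shift could be missed there too. The percentages of THI2.1 start from WT values near background, where a small shift could not be seen, and are given as values only. JMJ24 knockout replicate 2 and double knockout replicate 1 lay between -14.2% and 9.7% for these 4 genes.

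PDF1.2 did not keep to the other genes of its group on this scale. It stood at -18.5% on JMJ24 knockout replicate 1 and at 163% on double knockout replicate 2, with the 2 IBM1 knockout arrays at 170% and 29.6%. These percentages share the WT and IBM1 knockout arrays, are taken on the log2 scale, and for PDF1.2 divide by a difference about as large as the spread between replicates.

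**Figure D2:**
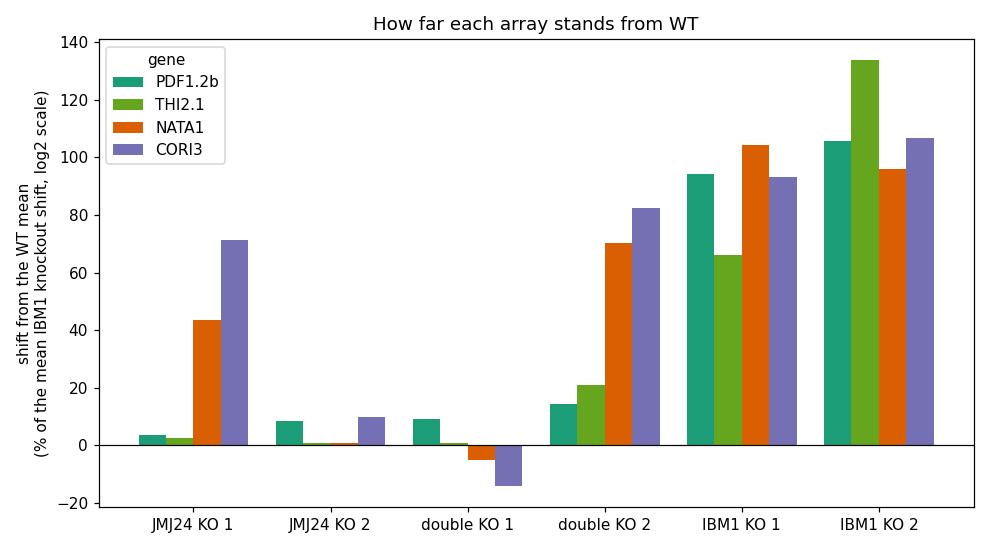
Shift of each knockout (KO) array from the WT mean, as a percentage of the gene's mean IBM1 knockout shift on the log2 scale, for PDF1.2b, THI2.1, NATA1 and CORI3; PDF1.2 is left out because its IBM1 knockout arrays lie at 170% and 29.6%. On JMJ24 knockout replicate 1 and double knockout replicate 2 the bars of NATA1 and CORI3 (43.7% to 82.3%) stand above those of the other 2 genes, of which THI2.1 starts from WT values near background.

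Correlations across the 8 arrays restate this grouping from the same values and are not separate support for it. CORI3 and NATA1 correlated at 0.965 and PDF1.2b and THI2.1 at 0.946, while pairs across these groups lay between 0.735 and 0.842. PDF1.2 correlated less with the other members of its own group, at 0.488 with PDF1.2b and 0.379 with THI2.1, than with NATA1, at 0.753. These are Pearson correlations over 8 arrays that share genotypes and replicates, given as a description.

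Against the background of all probe sets, both IBM1 knockout arrays lay above both WT arrays for 5 of the 5 genes and for 19.2% of all 22746. Both lay above all other arrays for 4 of the 5, PDF1.2 being the exception, and for 8.76% of all. Both double knockout arrays lay above both WT arrays for PDF1.2b and THI2.1, 2 of the 5, and for 13.1% of all, and both JMJ24 knockout arrays did so for 3 of the 5 and 12.4% of all. A mean difference of at least 1 was found for 3 of the 5 and for 1.36% of all. In the limma fit over all probe sets (Benjamini-Hochberg adjusted p under 0.05), PDF1.2b was the 1 of the 5 called as higher in IBM1 knockout minus WT, where 0.264% of all were, and the 1 called as lower in double knockout minus IBM1 knockout, where 0.207% were. None was called in the other comparisons, in which 0.00879% of all were called for JMJ24 knockout minus WT and for double knockout minus WT, 0 for double minus JMJ24 knockout and 0.0132% for the interaction. The call for IBM1 knockout minus WT was lost on leaving out any 1 of the 6 arrays of the other genotypes, and the call for double minus IBM1 knockout on leaving out any 1 array except IBM1 knockout replicate 1, without which THI2.1 was called as well in both comparisons. Over all probe sets the 76 calls for IBM1 knockout minus WT fell to 0 without either WT array, to 2 without either JMJ24 knockout array and to 19 without either double knockout array. The 55 calls for double minus IBM1 knockout fell to 0, 3 and 0 in the same way, and stood at 48 without IBM1 knockout replicate 2. Keeping only probe sets with a group mean of 5 or more, 82 and 6 of 7286 were called in the same comparisons. Quantile normalization gave 88 and 25 calls, centring 71 and 38, limma-trend 112 and 63, and the compared groups alone 0 and 0. Leaving out JMJ24 knockout replicate 1 and double knockout replicate 2 together leaves each of those genotypes 1 array, so its count is not compared. Since the genes were chosen from these values, nothing is read from these counts.

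The wider pathway was read from 6 lists of jasmonate and defensin genes with 87 members. Of these, 24 were measured, the 5 genes above and 19 others. A listed gene counts as measured here if the annotation names a probe set for it alone, or if it is among the 5. The other listed genes may have probe sets that the annotation leaves unnamed, as CORI3 and NATA1 do. They were not looked up there. None of the 19 passed the limma test in any of the 6 comparisons, where at most 0.334% (IBM1 knockout minus WT) and 0.242% (double minus IBM1 knockout) of all probe sets did. For IBM1 knockout minus WT, 5 of the 19 had an unadjusted p under 0.05, 4 higher and 1 lower, against 14.4% of all probe sets, and limma-trend called 1 of them, PDF1.4. For double minus IBM1 knockout the count was 5, against 11.1% of all probe sets, and for the interaction 4, against 7.72%. It was 2 for double knockout minus WT (5.54% of all), 1 for JMJ24 knockout minus WT (4.04% of all) and 0 for double minus JMJ24 knockout (3.35% of all), and limma-trend called none of the 19 in these 5 comparisons. The median difference of the 19 genes for IBM1 knockout minus WT was 0.01, against -0.01 over all probe sets.

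Of the 18 listed genes of jasmonate synthesis and modification, 4 were measured under a name and none passed. They were OPCL1, a ligase that activates jasmonate precursors, DGL, a plastid lipase, AIM1, an enzyme of beta-oxidation, and JMT, which makes methyl jasmonate. OPCL1 measured 6.03 and 5.48 in WT and 6.31 and 5.86 in the IBM1 knockout, which overlap, and was lowest on JMJ24 knockout replicate 2, at 4.95. AIM1 stayed between 7.85 and 8.16, and DGL did not rise above the arrays' lower quartiles on any of the 8. JMT was at or under the quartile on 4 arrays and measured 2.93 and 2.74 in the double knockout, against 2.5 and 2.49 in WT. The lowest adjusted p of the 4 for IBM1 knockout minus WT was 0.831 (limma).

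The transcription factors MYC3 and MYC4, which act with MYC2, were measured. MYC4 read 5.10 and 4.86 in WT and 4.54 and 4.56 in the IBM1 knockout, so the groups did not overlap. The JMJ24 knockout, at 4.82 and 4.31, was also below both WT arrays, with a difference of -0.42 from WT against -0.43 for the IBM1 knockout. MYC4 did not pass in either comparison (limma adjusted p = 1 and 0.473), nor did MYC3, which lay between 3.88 and 4.35 on all arrays.

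The 4 JOX genes encode oxygenases that inactivate jasmonate. JOX2 (AT5G05600) measured 2.79 and 2.95 in WT, 3.55 and 4.31 in the IBM1 knockout, and from 2.82 to 3.0 on the JMJ24 and double knockout arrays. Only the IBM1 knockout arrays stood apart, a pattern close to that of THI2.1, and its difference of 1.05 from WT did not pass (SE 0.247, limma adjusted p = 0.154). It did pass without IBM1 knockout replicate 1, at 1.43 (limma adjusted p = 0.0312). JOX1, JOX3 and JOX4 lay at or below 2.47 on every array, near background.

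The relatives of the defensins and of THI2.1 did not all go the same way. PDF1.4, a defensin gene of the same subfamily as PDF1.2, measured 3.01 and 2.86 in WT, 3.84 and 4.24 in the IBM1 knockout, and from 3.02 to 3.19 in the other knockouts, the pattern of PDF1.2b. Its difference of 1.1 (SE 0.141) had the lowest adjusted p of the 19 genes and did not pass (limma adjusted p = 0.0674). It passed with limma-trend (adjusted p = 0.0469) and without IBM1 knockout replicate 1 (limma adjusted p = 0.0291). PDF1.1 stayed between 2.73 and 2.83.

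THI2.2, the second thionin gene measured, went in the direction opposite to THI2.1. WT read 7.20 and 7.05 and the JMJ24 knockout 6.57 and 7.13. The IBM1 knockout read 5.39 and 5.53 and the double knockout 7.12 and 6.13. The IBM1 knockout arrays were the lowest, and JMJ24 knockout replicate 1 and double knockout replicate 2 lay between them and WT. The 4 arrays that stood apart were thus those of CORI3 and NATA1, in the other direction. The difference of -1.66 between IBM1 knockout and WT did not pass (SE 0.362, limma adjusted p = 0.138).

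Of the other defensins, PDF2.1 measured 3.15 and 3.08 in WT, 3.7 and 4.5 in the IBM1 knockout and at most 3.31 elsewhere, and did not pass (limma adjusted p = 0.186; 0.0499 without IBM1 knockout replicate 1). PDF2.2 read 8.58 and 8.22 in WT and was higher on all 6 knockout arrays, from 8.98 to 9.66. Its difference was 1.21 for IBM1 knockout minus WT (limma adjusted p = 0.135), 0.98 for double knockout minus WT (limma adjusted p = 0.67) and 0.86 for JMJ24 knockout minus WT (limma adjusted p = 1). None of these passed, and the 3 comparisons share the WT arrays. PDF2.3 lay between 8.33 and 9.02 and PDF2.5 between 2.59 and 2.96.

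The wound and coronatine list had 2 further genes measured under a name. NATA2 (AT2G39020), the closest relative of NATA1 and the gene next to it in the genome, measured 4.22 and 4.23 in WT, 4.31 and 4.51 in the IBM1 knockout, and 3.98 and 4.3 in the double knockout. Its whole range over the 8 arrays was 0.526, against 3.83 for NATA1, although the genes lie side by side. BSMT1, which makes methyl salicylate, lay near background at 2.35 to 2.41. Of the 10 protein-coding genes that flank the 5 genes, 7 were measured under a name. The 2 beside CORI3 stayed between 2.34 and 2.73, and the 2 beside THI2.1 between 2.44 and 2.99.

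**Figure D3:**
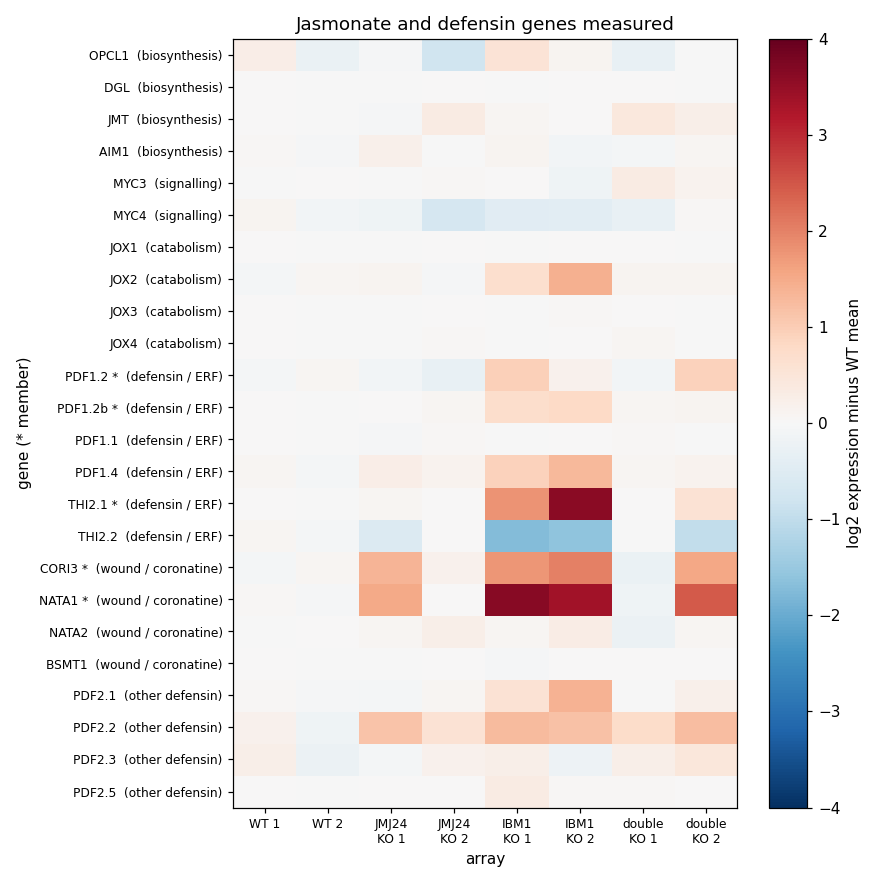
Log2 expression minus the WT mean for the 24 jasmonate and defensin genes measured, 1 row per gene and 1 column per array, with red above and blue below the WT mean; stars mark the 5 genes described above. NATA1, CORI3 and, in blue, THI2.2 differ on JMJ24 KO 1, both IBM1 KO arrays and double KO 2, while THI2.1, PDF1.2b, PDF1.4, PDF2.1 and JOX2 differ mainly on the IBM1 KO arrays.

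The named genes whose profile was most like each of the 5 were taken from probe sets with a range of at least 1 over the 8 arrays. For CORI3 these were AT1G27030 (Pearson r = 0.991), AT4G25900 (0.984) and AT3G13672 (0.984), and for NATA1 AT2G04460, annotated as a pseudogene (0.987), AT5G61520 (0.987) and AT5G55450 (0.986). AT1G27030 measured 6.21 and 6.16 in WT, 7.24 on JMJ24 knockout replicate 1 and 7.45 on double knockout replicate 2, with 7.50 and 7.58 in the IBM1 knockout. All 6 of these genes were thus high on the same 4 arrays as CORI3 and NATA1.

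The profiles most like THI2.1 were AT3G49210 (0.993), PDF2.1 (0.992) and AT5G05600, which is JOX2 (0.988), so 2 of the 3 are genes of the lists above. For PDF1.2b they were ATC, a homologue of a flowering regulator (0.995), ICL, isocitrate lyase (0.993), and AT4G16260 (0.993), which were high on the IBM1 knockout arrays alone. For PDF1.2 the closest were AT3G47570 (0.884), GH9B13, a glycosyl hydrolase gene (0.882), and AT2G39650 (0.881), a weaker likeness than for the other 4 genes. No p-value is given for these correlations, which were picked as the highest of many over 8 arrays.

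**Figure D4:**
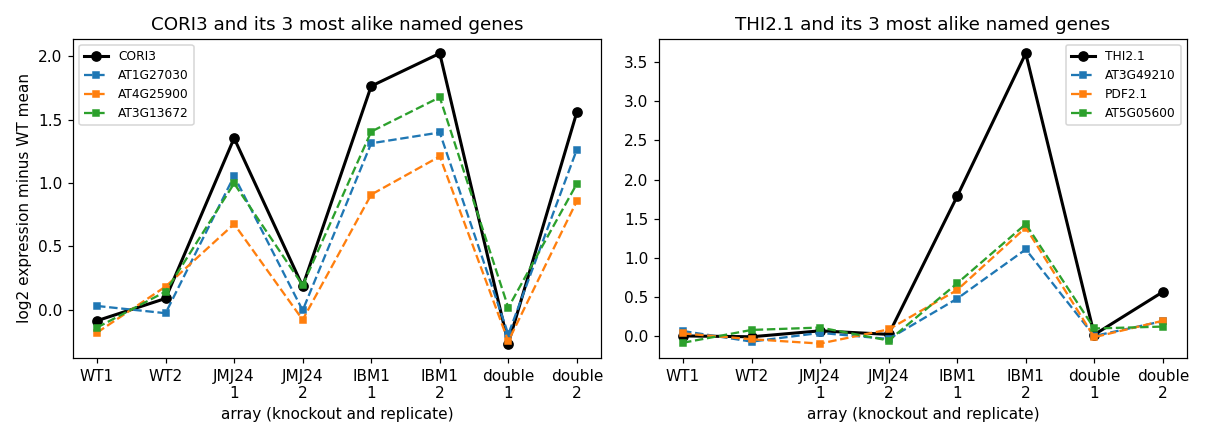
Log2 expression minus the WT mean on each array for CORI3 (left) and THI2.1 (right), in black, with the 3 named genes most like each, dashed. The CORI3 group is raised on JMJ24 1, both IBM1 arrays and double 2, while the THI2.1 group is raised mainly on the IBM1 arrays and most on IBM1 2.

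Some measures of the samples moved with these results. The yield of total RNA was 24 and 16.2 µg for the IBM1 knockout samples and 27 to 45.5 µg for the others. The photosynthesis genes RCA and LHCB4.2, 2 of 10 leaf genes listed, were both abundant. RCA lay between 12.81 and 12.95, while LHCB4.2 was lowest on the IBM1 knockout arrays, at 12.67 and 12.59 against 12.72 or more elsewhere (difference from WT -0.20, limma adjusted p = 0.173). Of 8 root genes listed, 2 were measured under a name. EXPA7, a root hair expansin, lay near background at 2.21 to 2.24, while PYK10, a beta-glucosidase of roots and hypocotyls, varied more. For PYK10, WT read 8.65 and 8.85, the JMJ24 knockout 9.0 and 8.88, the IBM1 knockout 9.26 and 9.63, and the double knockout 8.65 and 9.59. PYK10 was thus highest on the IBM1 knockout arrays and double knockout replicate 2, where CORI3 and NATA1 were highest. None of the 6 flower genes listed was measured under a name. The difference between 3' and 5' control probe sets, which grows as RNA degrades, was largest on double knockout replicate 1, at 2.96 for GAPDH against 1.77 to 2.69 on the other arrays. The part of these measures in the results was not tested.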

How the data were processed

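Each array has 1 value per probe set, deposited by the authors on a log2 scale. The submitters' processing notes name GCRMA, which corrects background, normalises between arrays and summarises probes; no version of it is stated. Of 22810 probe sets, 64 controls were left out and 22746 tested. Names are those of the platform annotation, brought up to date by Entrez ID with the TAIR10.1 gene table, which also gave the neighbours. With arrays, precision is limited by their number rather than by read depth. The R package limma 3.58.1 (R 4.3.3) fitted 1 mean per genotype over the 8 arrays (4 residual degrees of freedom, prior 1.2), with Benjamini-Hochberg adjustment over all probe sets and a threshold of 0.05. The fit was tested on simulated data. The 5 genes and the gene lists were chosen with earlier results of these data known. Listed genes named beside the 5 are the 3 with the largest range over the arrays in each list; the named genes of like profile are the 3 of highest correlation per gene; other listed genes were named after their values were seen. Alternatives tried were to keep only probe sets with a group mean of 5 or more, to quantile normalise again, to centre on array medians, limma-trend, a fit on the compared groups alone, a replicate block, and leaving out arrays. The probe sets of JMJ24 and IBM1 are unnamed in the annotation, so the targeted genes were not checked, and no sequences were used here.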

Additional observations from a re-analysis of the deposited data

How the results depend on the processing

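Of 24 listed genes measured, 1 (PDF1.2b) was called in IBM1 knockout minus WT (0.334% of all probe sets) and double minus IBM1 knockout (0.242%). PDF1.2b is among the 5 genes chosen with these values known, so nothing is read from its calls. For IBM1 knockout minus WT the count was 2 with limma-trend, and 0 with the filter on dim probe sets (which leaves out PDF1.2b), with the replicate block, with the compared groups alone and without JMJ24 knockout replicate 1 and double knockout replicate 2 together; leaving out 1 array gave 0 to 5, the 5 without IBM1 knockout replicate 1. Over all 22746 probe sets the calls went from 76 to 112 with limma-trend and to 165 without IBM1 knockout replicate 1. For double minus IBM1 knockout it was 0 with the filter, quantile normalization, centring, limma-trend, the replicate block, the compared groups alone and without those 2 arrays together, and 0 to 4 with 1 array left out, the 4 without IBM1 knockout replicate 1, where the calls over all probe sets went from 55 to 161. Of the 19 listed genes beside the 5, 0 were called in both; limma-trend gave 1 for IBM1 knockout minus WT, and leaving out 1 array 0 to 3 and, for double minus IBM1 knockout, 0 to 2. For the latter, the filter, quantile normalization, centring and limma-trend called 6, 25, 38 and 63 of all tested. The cause was not tested. In the other 4 comparisons the count of listed genes called was 0 under every alternative run. Few of all 22746 probe sets were called there. The main fit called 2 for JMJ24 knockout minus WT, 2 for double knockout minus WT, 0 for double minus JMJ24 knockout and 3 for the interaction. With limma-trend these were 3, 5, 1 and 10. The interaction calls over all probe sets also rose when an IBM1 knockout array was left out. A count of 0 is thus near the share over all. The deviations of same-numbered arrays correlated between 0.121 and 0.208 for 4 of the 6 pairs of genotypes, at 0.037 for WT and JMJ24 knockout and at -0.31 for JMJ24 and double knockouts, so not every pair was over 0.1 and the numbers were not taken to pair the samples. The replicate block and the compared groups alone gave 0 calls over all probe sets in each comparison run. Pairing those 2 genotypes crosswise, chosen after seeing the data, gave 0 for double minus JMJ24 knockout. Among the genes named here, the only called differences were those of PDF1.2b, which kept their sign under every alternative run that included it. Other differences could change sign. For double knockout minus WT, CORI3 went from 0.65 to -0.27 and NATA1 from 1.14 to -0.18 without double knockout replicate 2. Of 463 differences of the 5 genes under alternatives, 45 moved by more than 1 SD between replicates. The filter, limma-trend, the replicate block, the compared groups alone and leaving out an array of a genotype not compared cannot move a difference. For CORI3 and NATA1 the SD also includes the split arrays. The count of 45 therefore does not measure stability. The interaction has no fit on the compared groups alone, since it uses all 4.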
